A study of Drosophila melanogaster
Gallus gallus with 8 samples.

Results

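Of the 16533 wide DRIP peaks called in wild type DT40 cells, 1228 had no primpol peak overlapping them or within 1000 bp. They are called wild-type-only wide peaks here, or members. A wide peak was one of at least 1000 bp on chromosomes 1 to 33 or Z, and distance was counted as the bases lying between a peak and the nearest primpol peak. The members were 7.43% of the wide wild type peaks (95% interval 7.03 to 7.84%, exact Clopper-Pearson), while 23.8% of wild type peaks of any width lacked a partner under the same gap rule. The members were chosen by width and by the gap to the primpol list, so both are given as descriptions. The remaining 15305 wide wild type peaks had a primpol partner, 14995 by overlap and 310 by a gap of at most 1000 bp, and are called partnered wide peaks.

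DRIP-seq, the sequencing of DNA recovered by immunoprecipitation of DNA:RNA hybrids, was carried out on PrimPol-deficient (primpol) and wild type cells of DT40, a chicken B-cell line, with the hybrid-specific antibody S9.6. Each genotype had 2 DRIP libraries, 1 input DNA library and 1 DRIP library pre-treated with RNase H, the enzyme that digests the RNA of a hybrid. The number of primpol clones behind these libraries is not given in the sources used here. Drosophila S2 cells had been added to every sample, per the sample labels at 3.75 DT40 cells to 1 S2 cell. The methods text gives a slightly different ratio, and no value here uses the spike-in. One list of peaks per genotype was analysed, called on a single DRIP alignment against the input of that genotype, with 48468 primpol and 41445 wild type peaks. The primpol list rested on 44735404 DRIP and 30302032 input tags and the wild type list on 46425192 DRIP and 23107894 input tags, so the primpol input was 1.31 times as deep.

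An R-loop forms when nascent RNA pairs with its DNA template and displaces the other DNA strand. Such structures arise across transcribed units and are removed in part by RNase H enzymes. PrimPol is a primase-polymerase that reprimes DNA synthesis ahead of a stalled replicative polymerase, which limits the single-stranded DNA left at the fork. The chicken genome is divided into a few large macrochromosomes and many small microchromosomes, and the small ones are known for their high gene density and GC content.

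With 1 list per genotype there was no spread between replicates, and no test of a difference between genotypes was possible. Intervals on shares and medians cover counting error over the peaks of 1 list only, and neighbouring peaks are not independent of each other. The presence of a primpol peak also depended on the depth of the primpol libraries. With primpol peaks scaled to the depth of the wild type input, 29985 of them were left and the number of members became 3443 of the 16533 wide peaks. In the other direction, 3042 of 20326 wide primpol peaks (14.97%, 14.5 to 15.5%) had no wild type peak overlapping or within 1000 bp.

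The members were narrow among wide peaks. Their median width was 1294.5 bp (95% interval 1274 to 1324), against 1962 bp (1934 to 1988) for partnered wide peaks, and the middle part of each distribution ran over 1126 to 1572 bp in members and 1388 to 3108 bp in partnered peaks (quartiles). The widest member spanned 3943 bp, against 18903 bp for the widest partnered peak. Together the members covered 1.75 Mb, or 4.38% of the 39.9 Mb under wide wild type peaks. A partner was therefore lacking most often among the narrowest of the wide peaks. Members were 535 of 3181 peaks from 1 kb to under 1.25 kb (16.8%, 15.5 to 18.2%), 329 of 2407 peaks from 1.25 to under 1.5 kb (13.7%) and 244 of 3352 peaks from 1.5 to under 2 kb (7.28%). They were 110 of 3523 peaks from 2 to under 3 kb (3.12%) and 10 of 4070 peaks of 3 kb or more (0.246%, 0.118 to 0.451%). None of the 1150 wild type peaks of 5000 bp or more was a member, for which the exact interval reaches up to 0.320%. Below the limit the share went on in the same direction, with 8401 of 23996 wild type peaks under 1000 bp lacking a partner (35.0%).

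The values at the limits of the rule were close to one another. The shortest members were chr3:34836631-34837630 with 1000 bp and chr1:35735437-35736438 with 1002 bp. The longest wild type peaks that met the gap rule but were too short were chr2:119264745-119265743 and chr3:80949009-80950007, each of 999 bp. On the gap, the members nearest to a primpol peak were chr3:94810356-94811485 with 1001 bp between them and chr1:77961355-77962848 with 1006 bp. The partnered peaks with the farthest partner were chr4:73647329-73648485 at 997 bp and chr10:18704692-18705845 at 991 bp. There were 24 members less than 10 bp above the width limit and 25 peaks at most 10 bp below it that met the gap rule. Likewise 34 members had a gap at most 100 bp above the limit, and 28 partnered peaks had one at the limit or less than 100 bp below it.

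Height, the fragment pileup averaged over a peak on the scale of the input library, was slightly lower in members. The median was 13.4 (13.25 to 13.52; range 8.8 to 25.41) in members and 14.55 (14.5 to 14.6; range 8.47 to 75.78) in partnered wide peaks. Partnered peaks were wider, and height grew with width among them, so medians were compared within 5 width classes and averaged by the number of members in each. On this measure the height of members was 0.949 times that of partnered peaks of like width. The ratio was 0.957, 0.945, 0.947 and 0.931 in the 4 classes under 3 kb, from narrow to wide, and 0.878 over the 10 members of 3 kb or more. The difference was thus below 1 in every class but small beside the spread of single peaks, and the quartiles of the groups overlapped in every class under 3 kb. In members under 1.25 kb they lay at 12.2 and 15.15, against 12.7 and 15.9 in partnered peaks of that width.

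The local background, lambda, is the pileup expected at a peak from the input and was derived from height and fold enrichment. It differed less than height did. Its median was 4.72 (4.65 to 4.78) in members and 4.87 (4.85 to 4.89) in partnered wide peaks, and within width classes the ratio of medians was 0.978 on average, with 0.989, 0.956, 0.979, 0.991 and 0.964 in the classes from narrow to wide. Within 1% of 2.26, the lambda that the input gives genome-wide in wild type, lay 2 members (0.163%, 0.0197 to 0.587%). The same held for 29 partnered wide peaks (0.189%, 0.127 to 0.272%). Peaks at the floor of the background were thus rare in both groups, at similar shares. Fold enrichment, height over lambda with 1 added to each, had a median of 2.51 in members and 2.62 in partnered wide peaks, a ratio of 0.975 at like width.

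**Figure D1:**
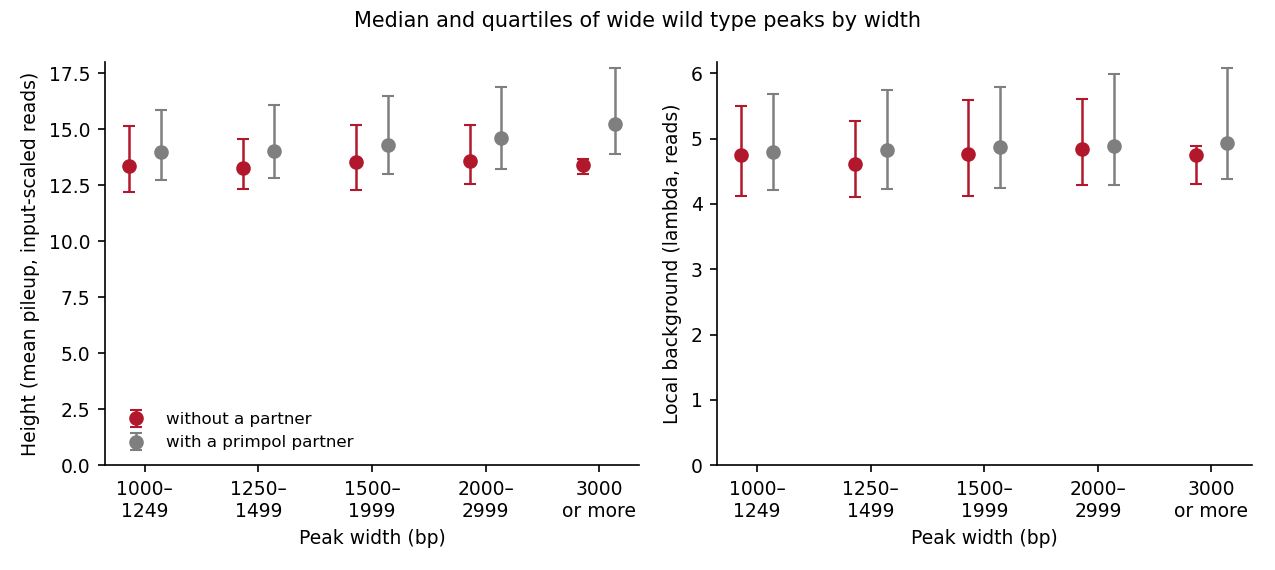
Height (left) and local background lambda (right) of wide wild type peaks in 5 classes of width in bp, both in reads on the input scale, with points at the median and bars from the lower to the upper quartile for members (red) and partnered peaks (grey). Members sit below partnered peaks in each class, by more in height (0.949 times on average) than in lambda (0.978 times).

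The score of the peak caller was lower in members as well. The median −log10 q-value was 1.43 (1.41 to 1.45) in members and 1.69 (1.68 to 1.70) in partnered wide peaks, and 0.913 times as high in members at like width. When only peaks whose −log10 q-value reached 2 were compared, the ratios at like width were 0.982 for height (0.903 to 1.02) and 0.957 for the score (0.922 to 1.01). These intervals include 1 but carry only the counting error of the median of members. A value of at least 2 was reached by 76 members (6.19%, 4.91 to 7.69%), against 3966 partnered wide peaks (25.9%, 25.2 to 26.6%). A value of at least 3 was reached by 7 members and 576 partnered peaks, and a value of at least 5 by 0 of 1228 members (exact interval up to 0.29995%) and 49 of 15305 partnered peaks (0.320%). The highest value was 4.81 in members and 45.7 in the more numerous and wider partnered peaks, and at a value of at least 5 the intervals of the shares overlapped (0.237 to 0.423% in partnered peaks).

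The same gradient was seen when all wide peaks were ordered. Among the 10% of wide peaks with the lowest height, up to 12.09, 254 of 1654 peaks were members (15.4%, 13.7 to 17.2%), and among the 10% with the greatest height, from 18.87, members were 37 of 1654 (2.24%, 1.58 to 3.07%). By score the share was 21.5% in the lowest 10% and 1.45% in the highest. By lambda it was 9.79% in the lowest 10% and 5.02% in the highest, a shallower slope. Ranked only against wide peaks of the same chromosome and width class, members had a median percentile of 33.01 for height, 43.7 for lambda and 35.4 for the score. The medians for partnered peaks were 51.8, 51.0 and 51.8. Nevertheless the groups overlapped broadly, since 840 members (68.4%) and 7425 partnered wide peaks (48.5%) lay below the median height of all wide peaks.

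Members were found on 31 of the 32 chromosomes that carried wide peaks, and their share differed between large and small chromosomes. On chromosomes 1 to 5 they were 828 of 12766 wide peaks (6.49%, 6.06 to 6.93%), on chromosomes 6 to 10 163 of 1827 (8.92%, 7.65 to 10.3%) and on chromosomes 11 to 15 98 of 889 (11.02%, 9.04 to 13.3%). On chromosomes 16 to 33, which hold the smallest microchromosomes, 121 of 677 wide peaks were members (17.9%, 15.1 to 21.0%), 2.41 times the share over all chromosomes. On chromosome Z the share was lowest, with 18 of 374 (4.81%, 2.88 to 7.50%), although this interval includes the share over all chromosomes. Chromosomes 16 to 33 thereby held 9.85% of the members and 3.63% of the partnered wide peaks.

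The differences in width and height between chromosomes did not remove this order. From the widths of their peaks alone, 57.5 members would be counted on chromosomes 16 to 33 at the rates of all chromosomes, and the number seen was 2.103 times that, or 2.32 times when height was used beside width. On chromosome Z the number was 0.547 times that given by width and 0.387 times that given by width and height. On chromosomes 1 to 5 it was 0.893 and 0.910 times. The height classes for these ratios were set over all chromosomes together, so they also sort chromosomes by their own level of height. Measured per length instead, members did not follow this order on the autosomes, with 1.36 per Mb on chromosomes 1 to 5, 1.11 on 6 to 10, 1.13 on 11 to 15 and 1.34 on 16 to 33, and 0.220 per Mb on Z. What grew toward the small chromosomes was thus the part that members made up of wide peaks, not their density.

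Over the chromosome classes, the number of primpol peaks for each wild type peak was lower where the share of members was higher. It was 1.17 on chromosomes 1 to 5, 1.13 on 6 to 10, 1.08 on 11 to 15, 0.795 on 16 to 33 and 2.07 on Z. Wide primpol peaks without a wild type peak were 13.7% of wide primpol peaks on chromosomes 1 to 5, 16.2% on 6 to 10, 14.5% on 11 to 15, 11.2% on 16 to 33 and 36.9% on Z. They were thus least frequent on 16 to 33 and most frequent on Z, with no steady order between. How far the makeup of the primpol list on a chromosome accounts for its members was not tested. Over the 20 autosomes with at least 50 wide peaks, the Spearman correlation of the share of members was −0.886 with the extent of the chromosome and −0.818 with the number of primpol peaks for each wild type peak. These are descriptions, since the chromosomes share the same pair of lists and the number of partners enters both sides of the second relation.

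**Figure D2:**
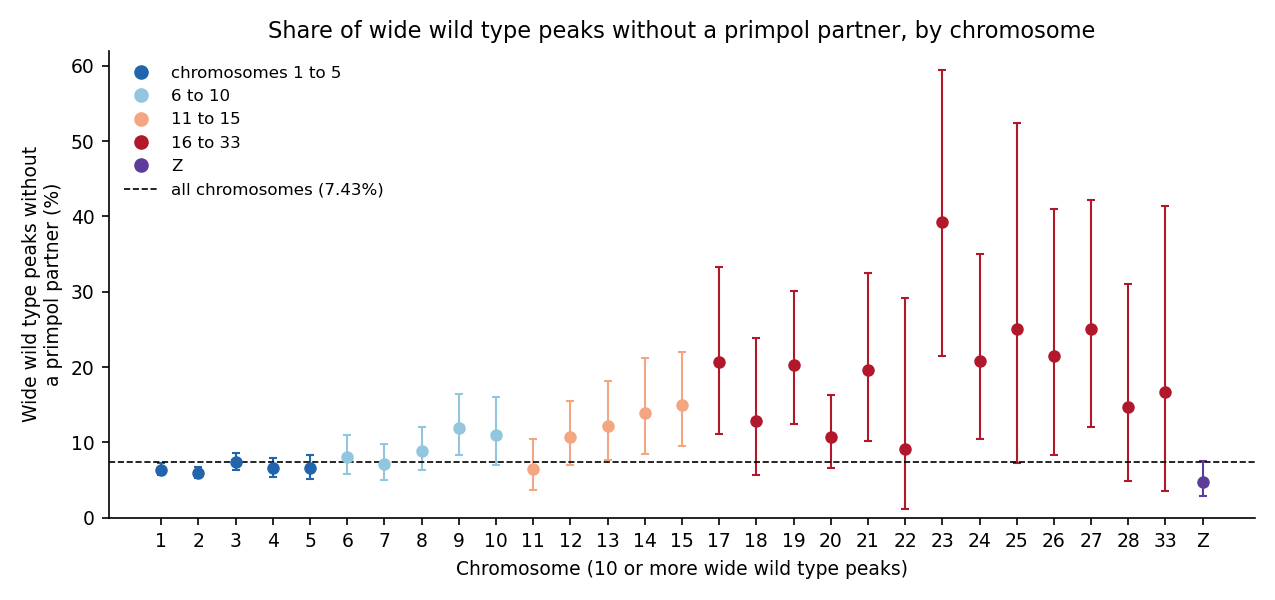
Share of wide wild type peaks that are members (%), for each chromosome with 10 or more wide peaks, with exact 95% intervals for counting error, colours for chromosome classes, and a dashed line at the share over all chromosomes (7.43%). Chromosomes 1 to 8 stay between 6.01 and 8.87%, the other autosomes drawn except chromosome 11 sit above the line, and chromosome 23 is highest at 39.3%.

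Single chromosomes differed within these classes. Chromosomes 1 to 8 held shares of 6.01 to 8.87%, and none of their intervals lay wholly above 7.43%. From chromosome 9 to 15 the shares ran from 6.49% on chromosome 11 to 21 of 140 wide peaks on chromosome 15, and 4 of these 7 intervals lay above 7.43%. Among the small chromosomes, 12 of 58 wide peaks were members on chromosome 17 (20.7%), 18 of 89 on chromosome 19 (20.2%) and 10 of 48 on chromosome 24 (20.8%). Chromosome 20 held a lower share, with 19 of 177 (10.7%, 6.59 to 16.3%). Chromosome 23 held the highest share among chromosomes with at least 10 wide peaks, with 11 of 28 (39.3%, 21.5 to 59.4%), an interval that overlaps those of chromosomes 17, 19 and 24 but lies above that of chromosome 20. The number was 5.43 times the number given by the widths of its peaks. It also carried 65 primpol and 108 wild type peaks, a ratio of 0.602. Chromosome 24, with 94 primpol and 158 wild type peaks, had a similar ratio of 0.595, and none of its 28 wide primpol peaks lacked a wild type peak. On chromosome 30 the only wild type peak of any width was a member, chr30:13811-15429, with a height of 14.17 and a −log10 q-value of 2.07, and there was no primpol peak on that chromosome. The extent of chromosome 30, taken to this peak, was only 0.0154 Mb.

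Members on different chromosomes were at different levels, as were their partnered neighbours. On chromosome 2 the median height was 16.35 in members and 17.98 in partnered wide peaks, and on chromosome 20 it was 17.8 and 19.2. On chromosome Z the medians were 9.33 in members and 9.88 in partnered peaks, with a lambda of 2.57 and 2.51. Chromosome 24 was an exception among these, with a median height of 19.3 over its 10 members and 18.6 over its 38 partnered wide peaks. Each of these chromosomes also had its own level of lambda, so heights in this paragraph are set side by side only within a chromosome.

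The nearest primpol peak was usually several kb away. Among the 1227 members on chromosomes that carried a primpol peak, the gap had a median of 7849 bp (7158 to 8756), with quartiles at 3170.5 and 17731.5 bp and a longest gap of 322169 bp. A gap of over 1 and up to 2 kb was found for 178 members (14.5%), one of up to 5 kb for another 285 (23.2%) and one of up to 10 kb for a further 237 (19.3%). Gaps of over 10 and up to 20 kb were found for 260 members, up to 50 kb for 214, up to 100 kb for 39 and beyond that for 14. The members at different gaps were alike in the other measures. Median height stayed within 12.87 and 13.52 and median width within 1269 and 1513 bp over these 7 classes of gap, and the highest median width was that of the 14 farthest members. A gap rule of 5000 bp left 765 members, with a height of 0.948 and a lambda of 0.972 times that of partnered peaks of like width.

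Gaps were longer on small chromosomes. The median was 6829.5 bp (6214 to 7568) on chromosomes 1 to 5, 8244 bp (6156 to 11080) on 6 to 10, 12101.5 bp (8446 to 16592) on 11 to 15 and 15932.5 bp (12711 to 21603) on 16 to 33. For the 18 members on Z it was 11260.5 bp (2674 to 33637), an interval that spans the 4 other medians. Primpol peaks as a whole were also sparser on small chromosomes, with 35358 over 608 Mb on chromosomes 1 to 5 and 1673 over 90.3 Mb on 16 to 33. How far this sparseness accounts for the gaps was not tested. Of the 14 members with a gap over 100 kb, 50% lay on chromosomes 16 to 33, against 7.30% of the members with a gap of at most 2 kb. The primpol peaks nearest to members, 1188 in all, resembled the primpol list as a whole. Their median width was 813.5 bp, against 839 bp over all primpol peaks on the chromosomes, and 62.2% of them overlapped a wild type peak, against 57.6%.

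**Figure D3:**
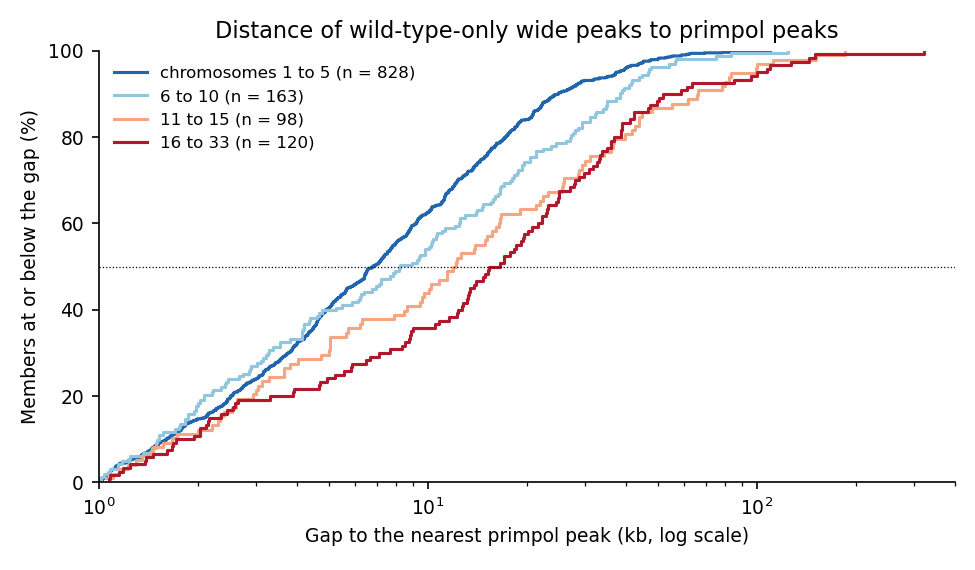
Cumulative share of members (%) by the gap to the nearest primpol peak in kb on a log scale, for chromosomes 1 to 5 (828 members), 6 to 10 (163), 11 to 15 (98) and 16 to 33 (120), each curve starting at the limit of the rule. The curves cross 50% at 6829.5, 8244, 12101.5 and 15932.5 bp, so members on smaller chromosomes lie farther from primpol peaks, which are sparser there.

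The members farthest from any primpol peak were on small or middle-sized chromosomes. The farthest was chr17:3135728-3136942, of 1215 bp and height 11.04, with 322169 bp to the next primpol peak. It was followed by chr12:2971874-2973885, of 2012 bp and height 15.87, at 186107 bp, and chr13:2152631-2154371, of 1741 bp and height 10.9, at 151351 bp. Their scores were not among the highest, with −log10 q-values of 1.37, 1.91 and 1.11.

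The 5 widest members lay on 5 different chromosomes. They were chr23:157914-161856 (3943 bp, height 13.39, gap 22235 bp), chr6:5245029-5248555 (3527 bp, height 13.39, gap 1492 bp), chr2:47195263-47198693 (3431 bp, height 18.14, gap 13632 bp), chr7:22807543-22810944 (3402 bp, height 13.7, gap 29413 bp) and chr3:89903541-89906753 (3213 bp, height 12.63, gap 29920 bp). The widest members were not the ones with the highest scores. Their −log10 q-values were 1.41, 1.82, 1.498, 1.63 and 1.47, which ranked between 136 and 641 among the members, and their heights were close to the median of 13.4 except on chromosome 2.

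The best-scored members were narrower. The highest −log10 q-value, 4.81, belonged to chr28:3992135-3993185, of 1051 bp, with a height of 18.9, a fold enrichment of 3.98 and a primpol peak 2122 bp away. Next came chr3:3146640-3148198 with 3.36 and a gap of 41338 bp, chr26:2131959-2133133 with 3.14 and a gap of 143994 bp, chr19:3103417-3104747 with 3.09 and a gap of 14016 bp, and chr2:102120708-102121847 with 3.09 and a gap of 2814 bp. Of these 5, 3 lay on chromosomes 16 to 33. More broadly, 18 of the 121 members on those chromosomes reached a −log10 q-value of at least 2 (14.9%, 9.06 to 22.5%), against 76 of all 1228. Partnered wide peaks at this score were not counted on those chromosomes, so whether the higher share is particular to members was not tested. The greatest heights were 25.41 at chr24:56556-57793, 23.88 at chr2:62490955-62492106 and 22.91 at chr16:178845-181090. Each of these had a high lambda of 9.14, 8.55 and 8.87, so their fold enrichments of 2.61, 2.61 and 2.42 were close to the median of members.

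Members stood farther from other wild type peaks than partnered wide peaks did. Here and in the paragraphs on neighbours, surroundings and chromosome ends, all wide peaks were compared without width classes. Partnered peaks were wider, and how far width accounts for these differences was not tested. The median gap to the nearest wild type peak of any width was 7613 bp (6625 to 8393) for members and 3574 bp (3423 to 3734) for partnered wide peaks. To the nearest other wide wild type peak it was 19221 bp (17092 to 20779) and 11880.5 bp (11522 to 12260). A wild type peak lay within 1 kb of 69 members (5.62%, 4.40 to 7.06%) and of 2975 partnered wide peaks (19.4%, 18.8 to 20.1%). Of those 69 neighbours, 31 had a primpol partner of their own (44.9%, 32.9 to 57.4%), while 23.8% of wild type peaks of any width lacked one. The rule limits the share among these neighbours, since no primpol peak can lie within 1000 bp of the member beside them.

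Nevertheless members lay beside each other more often than partnered peaks lay beside them. The nearest other wide wild type peak was itself a member for 147 of 1227 members (11.98%, 10.2 to 13.9%), against 1040 of 15304 partnered wide peaks (6.80%, 6.40 to 7.21%). When only peaks whose −log10 q-value reached 2 were counted, the share was 4.05% (0.844 to 11.4%), an interval that includes the 1.88% of those peaks that were members, and after depth scaling it was 27.1% (25.6 to 28.6%), with 20.8% of wide peaks being members. Within chromosome classes this held on chromosomes 16 to 33, with 36 of 120 members (30.0%, 22.0 to 39.0%) and 86 of 555 partnered peaks (15.5%, 12.6 to 18.8%), and on chromosomes 1 to 5, with 10.6% (8.61 to 12.9%) and 5.92% (5.51 to 6.36%). It did not hold on chromosomes 6 to 10, where the shares were 7.98% (4.31 to 13.3%) and 8.29%, nor on 11 to 15, where they were 9.18% (4.29 to 16.7%) and 11.1%. On Z, 1 of 18 members had a member as its nearest wide peak. When peaks of all widths were counted, the nearest wild type peak lacked a partner for 32.9% of members and 18.0% of partnered wide peaks. The gap rule enters both comparisons of nearest peaks. A peak close to a member lies where primpol peaks are excluded, and one close to a partnered peak can share its partner. Such close neighbours were not left out, so how much of the contrast the rule itself gives was not tested.

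Most members were isolated all the same. Along the chromosomes, 948 members had a partnered wide peak or a chromosome end on each side, while 117 runs held 2 members in a row, 14 held 3 and 1 held 4. Another member lay within 10 kb of 45 members (3.66%) and within 100 kb of 356 (29.0%). In consecutive windows of 100 kb, 1050 windows held 1 member, 83 held 2 and 4 held 3.

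The run of 4 lay on chromosome 23, at chr23:2211213-2365255, and spanned 154 kb. Its members measured 1.54, 2.05, 1.93 and 1.25 kb, with heights of 12.64, 14.19, 12.17 and 17.07 and −log10 q-values of 2.99, 1.57, 1.39 and 2.61. It held 8 wild type peaks and 1 primpol peak, of 565 bp and height 14.55, and that primpol peak was 2457 bp from the third member. The members had lambdas of 2.61, 4.95, 4.09 and 5.14, so the first had the lowest background and the highest fold enrichment, 3.78. The next longest run, chr23:4412705-5474943, also lay on chromosome 23 and had 3 members, 14 wild type peaks and 1 primpol peak over 1062 kb. The third, chr2:52097297-52871152, had 3 members, 10 wild type and 9 primpol peaks over 774 kb. In the last of these, primpol peaks were nearly as many as wild type peaks, whereas on chromosome 23 they were few. Among the other runs of 3, which were looked at after their values were seen, chr24:4248754-4295140 with 3 wild type peaks and chr33:961360-980545 with 4 contained no primpol peak.

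**Figure D4:**
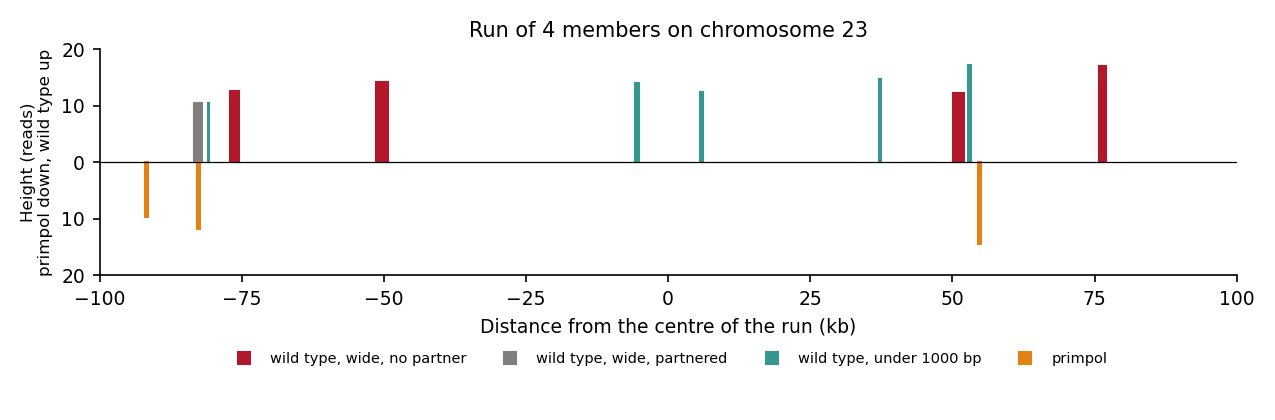
Peaks within 100 kb of the centre of the run of 4 members on chromosome 23, with primpol peaks drawn downward and wild type peaks upward, bar width to scale in kb and bar length equal to height in reads on the input scale of each list. The 4 members (red) stand between 12.17 and 17.07, and the only primpol peak inside the run, at 14.55, lies beside the third member.

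The surroundings of members were poorer in primpol peaks than those of partnered wide peaks, which were wider and were not matched by width here. Within 50 kb on each side, leaving out peaks within 1000 bp, there were on average 4.83 primpol and 4.45 wild type peaks around a member, against 6.20 and 5.34 around a partnered wide peak. That is 1.09 primpol peaks for each wild type peak around members and 1.16 around partnered peaks. The difference was in the same direction in every chromosome class, with 1.12 and 1.17 on chromosomes 1 to 5, 1.07 and 1.14 on 6 to 10, 1.01 and 1.13 on 11 to 15, 0.768 and 0.843 on 16 to 33, and 1.51 and 1.69 on Z. Of the other wild type peaks in these windows, 25.8% lacked a primpol partner around members and 19.4% around partnered peaks. No primpol peak was found in the window for 55 members (4.48%) and 325 partnered wide peaks (2.12%), but this did not hold in each class, with 3.68% and 3.85% on chromosomes 6 to 10 and 13.2% and 13.8% on 16 to 33. The regions around members thus had fewer peaks of both lists, with the larger shortfall in primpol peaks.

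By distance, the deficit ran over the whole range measured. From 50 to 100 kb away there were 4.73 to 5.02 primpol and 4.46 to 4.62 wild type peaks per 100 kb around members, against 6.19 to 6.32 and 5.23 to 5.34 around partnered wide peaks. Closer to the peak the order of the lists depended on the group and the distance. Partnered wide peaks had more wild type than primpol peaks only at 1 to 2 kb. Members had slightly more wild type peaks at 2 to 5 kb, with 5.23 primpol and 5.44 wild type peaks per 100 kb. At 5 to 10 kb the lists were nearly equal around members. At 1 to 2 kb, members had 188 primpol and 135 wild type peaks (7.65 and 5.50 per 100 kb), and partnered wide peaks had 2796 primpol and 3384 wild type peaks (9.13 and 11.1 per 100 kb). This nearest class adjoins the limit set by the gap rule.

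**Figure D5:**
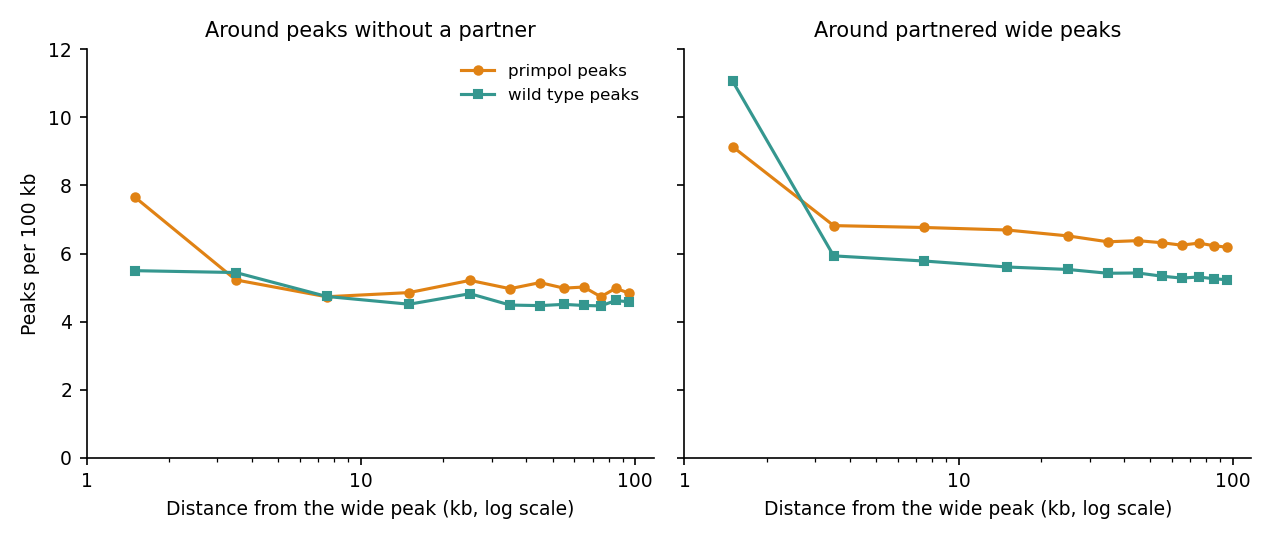
Peaks per 100 kb of the primpol (orange) and wild type (green) lists against distance in kb from the edge of a wide wild type peak on a log scale, around members (left) and partnered wide peaks (right), with each point at the middle of its distance class. Beyond 2 kb both lists are sparser around members, at 4.46 to 5.44 peaks per 100 kb, than around partnered peaks, at 5.23 to 6.82. Members and partnered peaks are not matched by width.

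Pooled over chromosomes of all sizes, members were also more frequent near the ends of the peak-covered part of a chromosome. Within 1 Mb of the outermost peaks of a chromosome lay 61 members (4.97%, 3.82 to 6.34%) and 325 partnered wide peaks (2.12%, 1.90 to 2.36%). Within chromosome classes the shares were closer, with 39 of 121 members (32.2%, 24.0 to 41.3%) and 138 of 556 partnered peaks (24.8%, 21.3 to 28.6%) on chromosomes 16 to 33, and 10 of 163 (6.13%) and 62 of 1664 (3.73%) on 6 to 10. On chromosomes 1 to 5 they were 4 of 828 (0.483%) and 39 of 11938 (0.327%). On chromosomes 11 to 15 the order was the other way, with 8 of 98 (8.16%) and 79 of 791 (9.99%). It was also the other way on Z, with 0 of 18 and 7 of 356 (1.97%). The intervals of members and partnered peaks overlapped in each class, so the difference near the ends over all chromosomes was not seen beyond counting error within a class.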

How the data were processed

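Reads were trimmed by the authors with Trim Galore 0.4.4, aligned with Bowtie2 2.2.6 to chicken Galgal5 and Drosophila, kept where uniquely matched and separated by species. Peaks were called with MACS2 2.1.1.20160309 in broad mode (q-value cutoffs 0.05 and 0.1), 1 list per genotype, and how both DRIP replicates were merged is not given in the sources used here. Per the file headers, whichever of the DRIP and input libraries was larger was reduced to the size of the smaller one. The deposited signal is the mean pileup over a peak and carries no spike-in scale. The deposited −log10 p-value, −log10 q-value and fold enrichment (a ratio of pileup to local background, each plus 1) are also means over the peak. From the deposited values, lambda was computed as height plus 1, divided by fold enrichment, minus 1.

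Gaps were computed in Python 3.11.15 (numpy 2.4.6, pandas 2.3.3, scipy 1.17.1, plots with matplotlib 3.10.9), checked with bedtools 2.31.1 (1228 members) and tested on simulated data. Width classes were bounded at 1, 1.25, 1.5, 2 and 3 kb. The extent of a chromosome was taken to its outermost peak. For depth scaling, primpol height and lambda were multiplied by 0.763, the ratio of input tags, −log10 p-values were shifted under a Poisson model, and peaks at or above the lowest wild type value were kept.

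Named members are the 5 widest, the 5 best scored, the 3 highest, the 3 farthest from primpol peaks, the 3 longest runs and the peaks at each limit. The members and lists were chosen with earlier results of these data known. No genome of the files' build was used here, so gene context and sequence are not analysed, and the RNase H-treated libraries and spike-in reads were not used.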

Additional observations from a re-analysis of the deposited data

How the results depend on the processing

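Of 50 alternatives to the results above, 27 stayed within the limits set for an unchanged value and 23 moved further. The limit was 1.5 times for counts and for primpol peaks around members, and the 95% interval for others. None turned a direction, which was defined only for ratios to partnered peaks, shares on chromosomes and primpol peaks around members. For the number and width of members, the nearest wide peak and the nearest primpol peak, no turn was defined. The number of members, 1228, was 765 when no primpol peak was allowed within 5000 bp, 120 at a width of at least 2000 bp, 76 at a stricter −log10 q-value (2 or more), and 3443 after depth scaling of the primpol list. With overlap alone it was 1538, with peaks merged within 1 kb first 1324, and unplaced sequences added 21.

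At the stricter q-value, members over partnered peaks came to 0.982 in height (0.903 to 1.02) and 0.994 in fold enrichment (0.972 to 1.01). In the score, the value used for the filter, they came to 0.957 (0.922 to 1.01). Each ratio was below 1 and each interval included 1, with 76 members left. These intervals carry only the counting error of the median of members, so they do not decide whether a difference remained. Without width classes the ratios came to 0.921, 0.957 and 0.842. The median width of members was 1393 bp after depth scaling and 1195 bp at the stricter q-value. The share of members on chromosomes 16 to 33 over that on all chromosomes was 2.94 at a gap of 5000 bp, 1.70 after depth scaling, 4.13 at the stricter q-value and 3.95 at 2000 bp, so it stayed above 1 in each. On chromosome Z it was 0 at the stricter q-value (0 to 2.93), with no member there, an interval that includes 1. The share of members whose nearest wide peak was a member was 27.1% after depth scaling, when 20.8% of wide peaks were members, 4.05% (0.844 to 11.4%) at the stricter q-value, when 1.88% were, and 10.1% on chromosomes 1 to 15 alone. The median gap to the nearest primpol peak was 11424.5 bp after depth scaling and 10542 bp at the stricter q-value. Around members there were then 0.692 primpol peaks for each wild type peak after depth scaling, against 0.738 around partnered peaks.

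Each list rests on 1 alignment per genotype, and leaving out a replicate was not run. No paired analysis was possible because the replicates of a genotype were merged into a single list. Absence from the primpol list means that no peak passed its threshold at its depth, not that no hybrid was present. By construction, depth scaling removed primpol peaks only and so added members only.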

Other observations

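On sequences not placed on chromosomes 1 to 33 or Z, 21 of 231 wide wild type peaks had no primpol peak within 1000 bp (9.09%, exact interval 5.72 to 13.6%). They lay on 20 sequences, and 18 of them were on sequences that carried no primpol peak at all. Their median width was 1253 bp. Their median height was 11.81, against 14.7 for partnered wide peaks on such sequences.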
